A study of Mus musculus with 7 samples.

Results

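The 7 nascent RNA libraries of GFI1+ IAHC (intra-aortic hematopoietic cluster cells) fell into 2 classes by the number of genes they held at 10 or more raw counts. The 3 libraries with 11000 or more such genes are called gene-rich here, and they were washout 2, compE 2 and Fc-JAG1 1. The other 4 of the 7, washout 1, washout 3, compE 1 and Fc-JAG1 3, are called gene-poor. The classes were thus chosen from the counts themselves, so every value that sets one class beside the other is a description and carries no test.

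The cells came from the aorta-gonad-mesonephros region (AGM) of E11.5 embryos of the CD1 and Gfi1:tomato background, and were sorted as CD31+cKIT+GFI1+, where the tomato reporter at the Gfi1 locus stood for GFI1. All groups shared an overnight culture with compound E (compE), which inhibits γ-secretase and thereby the cleavage that activates Notch. Portions of 300 to 400 cells then spent 4 h in methylcellulose with ethynyl uridine (EU), which growing transcripts take up, together with DMSO alone after the inhibitor was washed out (washout, n = 3), with compE again (compE, n = 2) or with recombinant JAG1 fused to an Fc part (Fc-JAG1, n = 2). The labels number the libraries by embryo, while the study's methods describe sorts from pools of embryos, and a second Fc-JAG1 library was left out by the authors. Each condition held exactly 1 gene-rich library. Libraries numbered 2 were both gene-rich, libraries numbered 3 were both gene-poor, and of those numbered 1 only Fc-JAG1 1 was gene-rich.

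IAHC are groups of round cells that bud from the hemogenic endothelium of the dorsal aorta and contain the first hematopoietic stem cells. GFI1 is a transcriptional repressor that helps to switch off the endothelial programme in these cells, and RUNX1, GATA2 and TAL1 are among the factors that set up the blood programme. Pulling down EU-labelled RNA after a short pulse enriches transcripts made during that pulse. Notch receptors are cut by γ-secretase after binding a ligand such as JAG1 on a neighbouring cell, and the freed part acts in the nucleus with RBPJ on targets such as Hes1. In such bulk samples fewer cells of a type and less RNA per cell cannot be told apart.

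The gene-rich libraries held 12351 (washout 2), 12083 (compE 2) and 11600 (Fc-JAG1 1) genes at 10 or more counts, and the gene-poor libraries held 6265 (washout 1), 7585 (washout 3), 8096 (compE 1) and 8006 (Fc-JAG1 3). The values on either side of the rule were thus 11600 for Fc-JAG1 1 and 8096 for compE 1, with no library between them. Total counts overlapped between the classes. They were 30059615, 33974693 and 32696854 in washout 2, compE 2 and Fc-JAG1 1, and 21652927, 31680553, 28417502 and 26352927 in washout 1, washout 3, compE 1 and Fc-JAG1 3. Washout 3 had more counts than the gene-rich washout 2 and yet held fewer genes. When each library was scaled to the smallest total, the expected numbers of genes at 10 or more counts were 11177 to 11977 in the gene-rich and 6265 to 7805 in the gene-poor libraries. In the gene-poor libraries the counts were also gathered on fewer genes, with 563 to 963 genes taking 50% of the counts against 1305 to 1376.

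**Figure D1:**
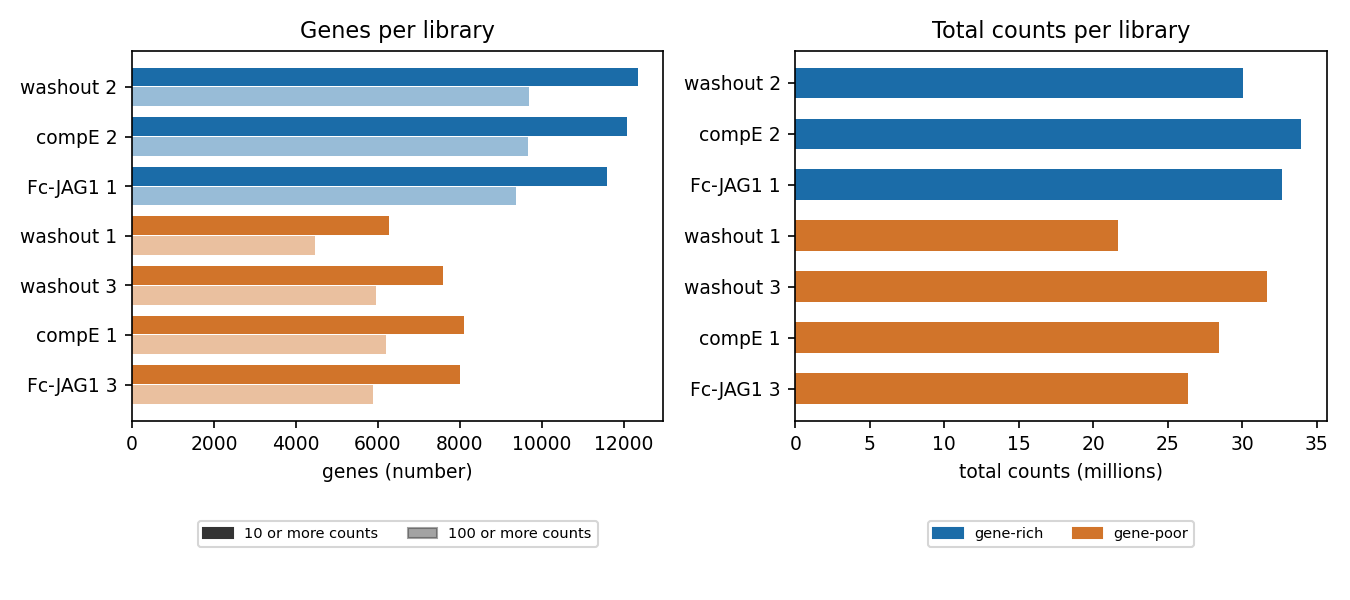
Left, the number of genes at 10 or more (dark bars) and at 100 or more (pale bars) raw counts in each of the 7 libraries. Right, total counts in units of 1000000, with gene-rich libraries in blue and gene-poor libraries in orange. The 3 gene-rich libraries stand at 11600 genes or more and the 4 gene-poor ones at 8096 or fewer, while the totals of washout 2 (gene-rich) and washout 3 (gene-poor) lie in the opposite order.

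A baseline nascent transcriptome was defined as the 9242 genes at 10 or more counts in all 3 gene-rich libraries, of 55487 genes in the table. Protein-coding genes made up 8681 of them (93.9%), beside 259 long noncoding genes and 278 pseudogenes. Since lengths differ, single genes are ranked here by CPM per kilobase of exon, averaged over the gene-rich libraries. CPM is the count scaled to a library total of 1000000. The authors counted reads with gene as the feature, so reads in introns may be included. Exonic length then need not be the length over which reads were counted, and the ranking depends on this choice. On that scale the leading protein-coding genes were mt-Nd1 at 4470 and mt-Cytb at 3338, both encoded by the mitochondrial genome, followed by Fth1, the ferritin heavy chain that stores iron, at 1324. Among those that followed were the chaperone Hsp90ab1 at 923, the ribosomal protein gene Rpl4 at 885, mt-Co1 at 867, the peroxide-reducing enzyme Gpx1 at 845, Rpl8 at 767, Actb at 764 and the actin-binding Tmsb4x at 757. The translation factor gene Eif5a (733) was also among the top 15, so that mitochondrial respiration, translation and the actin cytoskeleton supplied most of this list.

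Among long noncoding genes the leaders on the same per-kilobase scale were Mir142hg at 1513, the host of the blood-cell microRNA miR-142, then 2410006H16Rik at 458 and Gas5, a snoRNA host, at 250.4. Mir142hg had raw counts of 17745, 12448 and 8648 in washout 2, compE 2 and Fc-JAG1 1 and of 11700, 26898, 6329 and 11026 in washout 1, washout 3, compE 1 and Fc-JAG1 3, so the classes overlapped. The nuclear RNA Malat1 was likewise in every library, at 13716, 25538 and 23279 counts in the gene-rich and 12048, 20196, 14462 and 41199 in the gene-poor libraries. Cct6a, a chaperonin subunit gene by name that the annotation lists among noncoding genes, overlaps Psph on chromosome 5. Reads of overlapping genes cannot be assigned to one of them with certainty here, because the strand setting of the counting is not given in the sources used here.

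The gene with the most counts in each gene-rich library was CT010467.1, annotated as ribosomal RNA on chromosome 17 (chr17:39846353-39848827, GRCm38), with 218925 (washout 2), 215799 (compE 2) and 200180 (Fc-JAG1 1) counts or 0.612% to 0.728% of the library. In the gene-poor libraries it had 51438, 28815, 175738 and 245768 counts in washout 1, washout 3, compE 1 and Fc-JAG1 3, and the first gene there was mt-Cytb with 1.00% to 4.35% of the counts. The share of counts on mitochondrially encoded genes was 1.14% (washout 2), 1.24% (compE 2) and 1.88% (Fc-JAG1 1), against 12.7% (washout 1), 2.48% (washout 3), 7.07% (compE 1) and 7.35% (Fc-JAG1 3). All 4 gene-poor libraries lay above all 3 gene-rich ones in this share. Its part in the number of genes held was not tested.

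The sorted identity was checked on the 3 genes of the sort. Kit, the stem cell factor receptor, had 6541, 19331 and 7722 counts in washout 2, compE 2 and Fc-JAG1 1 and 6381, 18971, 13796 and 10470 in washout 1, washout 3, compE 1 and Fc-JAG1 3, with no separation of the classes. Pecam1, which encodes the CD31 antigen (chr11:106654217-106750628), had 3909, 6028 and 5932 counts in the gene-rich libraries and 18, 1186, 6314 and 11 in the gene-poor ones, so that 2 of the latter were close to the limit of 10. Gfi1 itself (chr5:107716657-107726036) had 12, 0 and 2504 counts in washout 2, compE 2 and Fc-JAG1 1 and 0, 2477, 0 and 0 in washout 1, washout 3, compE 1 and Fc-JAG1 3. It was therefore at 0 in 4 of 7 libraries, 1 of them gene-rich, and was no member of the baseline set. The gate read the reporter protein and not this RNA.

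Of 28 hemogenic and stem cell factors, 21 were in the baseline set, and 13 of these 21 were at 10 or more counts in all 4 gene-poor libraries, beside a background of 32.8% of all baseline genes (3035 of 9242). The list is at high level, and on average 85.7% of its baseline genes were kept by a gene-poor library against 82.5% of all baseline genes of the same level deciles. None was missing from all 4. Runx1 had 16525, 39313 and 29610 counts in the gene-rich libraries and 17485, 33702, 24479 and 51298 in washout 1, washout 3, compE 1 and Fc-JAG1 3. Etv6, Ikzf1, Spi1, Myb, Meis1 and Fli1 were likewise held by every library, with lowest counts of 17601, 9240, 5239, 1417, 273 and 2419.

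Other factors of the same programme had over 1000 counts in 3 gene-poor libraries and 0 in another. Gata2 had 7062, 9725 and 9033 counts in the gene-rich libraries and 6718, 33387, 0 and 16991 in washout 1, washout 3, compE 1 and Fc-JAG1 3. Tal1, which partners with GATA factors, had 6517, 4595 and 4023 in the gene-rich and 2868, 1787, 1352 and 0 in the gene-poor libraries. Cbfb, the binding partner of RUNX1, had 2674, 6578 and 7138 in the gene-rich libraries and 0, 7192, 9058 and 4326 in the gene-poor ones. Each gene was thus missing from 1 gene-poor library, and the library differed among the 3 genes.

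The same was seen for surface proteins and further regulators. Ptprc, the CD45 gene, had 3 counts in washout 3 and between 2183 and 19875 in the other libraries. Itga2b, the CD41 gene, had 8373 to 9519 counts in the gene-rich libraries and 8, 6790, 11056 and 184 in washout 1, washout 3, compE 1 and Fc-JAG1 3. Gfi1b, the paralogue of Gfi1, had 2891, 4491 and 4999 in the gene-rich libraries and 0, 1298, 4053 and 1 in the gene-poor ones, and Hhex had 3260, 3889 and 1866 against 0, 1, 5825 and 0. Ly6a, which encodes the stem cell antigen SCA1, had 2399, 914 and 956 counts against 0, 1896, 3655 and 0. Lyl1, Zfpm1 and Cd27 had no counts in any of the 7 libraries, and Lmo2 had 5 counts in compE 1 and none elsewhere.

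**Figure D2:**
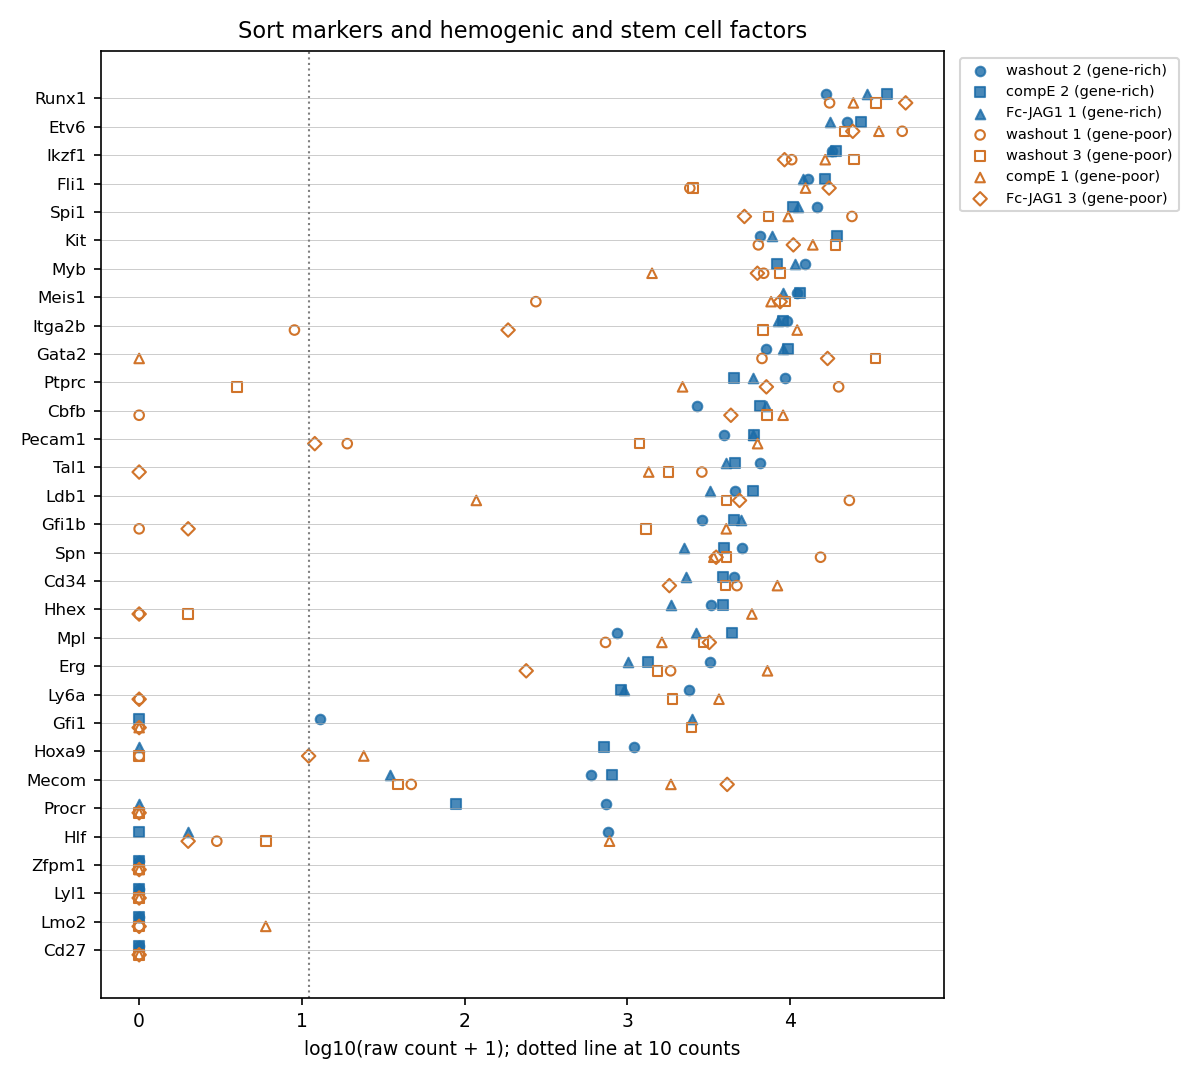
Raw counts, as log10(count + 1), of the 3 sort markers and 28 hemogenic and stem cell factors in each library, ordered from top to bottom by mean level in the gene-rich libraries (blue, filled). The gene-poor libraries (orange, open) overlap them for Runx1, Etv6, Ikzf1 and Spi1 but scatter down to 0 for Gata2, Cbfb, Tal1, Gfi1b, Hhex and Ly6a. The dotted line marks 10 counts.

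Markers of other cell types that a sort from the AGM could contain were counted in the same way. None of 11 mesenchyme, 10 neural and 8 epithelium genes was in the baseline set, and their summed levels stayed at or below 28.9, 26.2 and 21.7 CPM in every library. Of 26 endothelial and arterial genes 7 were in the baseline set, and the list summed to 303 to 422 CPM in the gene-rich and 188 to 363 CPM in the gene-poor libraries. Cdh5, the defining cadherin of endothelium, had 139 counts in washout 1 and at most 3 in the other libraries, and Kdr had 59 in compE 1 and at most 1 elsewhere. Other members were higher in places. Flt1, a VEGF receptor gene, had 3, 3706 and 440 counts in washout 2, compE 2 and Fc-JAG1 1 and 3835, 10, 1480 and 2670 in washout 1, washout 3, compE 1 and Fc-JAG1 3, and Vwf, the von Willebrand factor gene of endothelium and megakaryocytes, had 660, 369 and 2072 against 10, 9, 16 and 13. Of 15 myeloid genes 11 were in the baseline set, led by the cytokine receptor gene Csf2rb, which had 25322 to 51893 counts in the gene-rich and 21658 to 105065 in the gene-poor libraries. Of 12 macrophage genes 6 were in the baseline set. They summed to 441 to 566 CPM in the gene-rich and 92.1 to 449 CPM in the gene-poor libraries. Lymphoid genes had 3 of 15 in the baseline set and summed to 110 to 220 CPM against 96.3 to 346 CPM. Erythroid and megakaryocyte genes summed to 1429, 887 and 1125 CPM in washout 2, compE 2 and Fc-JAG1 1 and to 43.5, 804, 279 and 95.5 CPM in washout 1, washout 3, compE 1 and Fc-JAG1 3, so all gene-rich libraries lay above all gene-poor ones. The same order held for lists of other roles. Mitochondrial ribosomal proteins summed to 5763 to 7257 CPM in the gene-rich and 3585 to 5513 CPM in the gene-poor libraries. MCM helicase and origin licensing genes summed to 3020 to 3752 against 1369 to 2618 CPM. In further lists the ranges overlapped, such as autophagy genes (1913 to 2183 against 641 to 3368 CPM). The defining erythroid genes Klf1 and Hbb-bh1 were at 0 or 1 counts in at least 3 of the gene-poor libraries. The level of Gata1 in washout 3 (8789 counts) was by contrast above that in any gene-rich library. Whether the sorted cells differed in make-up between libraries was not tested.

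A baseline gene was counted as kept by a gene-poor library when it had 10 or more counts there. Washout 1 kept 55.7% of the 9242 genes, washout 3 67.2%, compE 1 70.7% and Fc-JAG1 3 69.4%, with a mean of 65.7% ± 6.84 (SD, n = 4). The genes under 10 counts thus made up 44.3%, 32.8%, 29.3% and 30.6% in the same order. Genes with 0 counts made up 22.3%, 16.2%, 15.2% and 15.9%, and genes with 1 to 9 counts 22.0%, 16.6%, 14.2% and 14.7%. The baseline set was held by the gene-rich libraries by definition, so each gene-rich library was also left out in turn and read against the genes that the other pair held. It then held 90.3% to 93.7% of them, whereas the gene-poor libraries held 52.8% to 67.3% of the same sets. The left-out library was itself classed by its number of genes at the same limit, so part of this contrast is fixed by the rule.

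Genes under 10 counts included many that were strongly counted in every gene-rich library. Of the 4936 genes with at least 1000 counts in every gene-rich library, 747 (15.1%) had no count at all in washout 1, 505 (10.2%) in washout 3, 423 (8.57%) in compE 1 and 439 (8.89%) in Fc-JAG1 3. In the other direction 3035 baseline genes were kept by all 4 gene-poor libraries, 2369 by 3 of them, 1876 by 2, 1301 by 1 and 661 (7.15%) by none. The median level of the first 4 of these groups in the gene-rich libraries was 134, 76.4, 47.8 and 31.0 CPM, and that of the genes kept by none was the lowest.

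Kept and lost genes thus differed in level. In deciles of the baseline genes by mean CPM over the gene-rich libraries, the highest decile (median 330 CPM) was kept at 96.0% ± 1.85 (SD, n = 4), the seventh (96.3 CPM) at 72.2% ± 10.3 and the second (13.1 CPM) at 43.5% ± 5.12. The lowest decile (1.86 CPM) was kept more often than the second, at 58.5% ± 5.77. Its genes were long, with a median span of 46666 bases against 23976 in the second decile. With a limit of 100 counts in place of 10 the share was higher in each decile than in the one before, from 33.5% to 94.7%. Left-out gene-rich libraries held 65.2% to 76.4% of the lowest decile and 99.6% or more from the seventh decile upward.

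**Figure D3:**
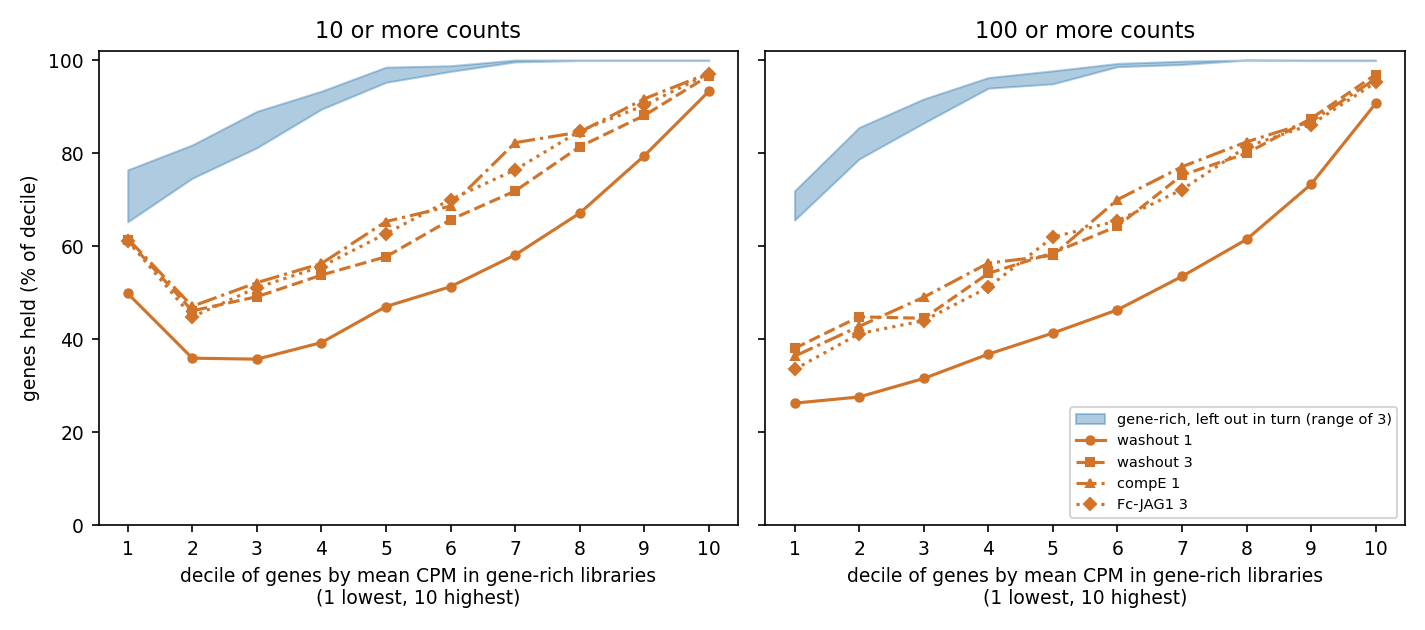
Share of genes held (%) in each decile of genes by mean CPM in the gene-rich libraries, at 10 or more counts (left) and 100 or more counts (right). Each orange line is a gene-poor library, and the blue band is the range of the 3 gene-rich libraries, each left out in turn and read against the other pair. The gene-poor lines reach 93.3% to 97.2% in the highest decile at 10 counts, and washout 1 (circles) runs below the other gene-poor libraries in every decile.

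Length showed a difference at the low limit, and at the high one its direction varied between libraries. Compared within level deciles at 10 counts, the quartile of baseline genes with the longest span (median 131375 bases) was kept at 76.6% ± 7.04 (SD, n = 4) and the shortest (5659 bases) at 61.5% ± 6.65, while the quartiles between stood at 59.8% and 63.9%. By exonic length the shares ran 63.7%, 61.5%, 65.6% and 73.4% from short to long. The deciles use CPM that are not divided by length. With levels per kilobase of exon the longest minus the shortest quartile by exonic length was 28.6 in place of 9.71 percentage points. Reads in introns may have been counted, so exonic length need not be the length that these counts came from. At 100 counts the corresponding shares by span were 61.1%, 58.6%, 58.6% and 63.7%. There the longest quartile was kept at 71.3% against 59.5% for the shortest in Fc-JAG1 3, at 68.5% against 66.0% in compE 1 and at 51.4% against 50.7% in washout 1, but at 63.5% against 68.1% in washout 3.

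A low background of counts that grew with gene length was present in all 7 libraries. Among protein-coding genes with under 50 counts in every library, the eighth with the shortest spans (median 963 bases) had a mean of 0.222 counts per gene in the gene-rich and 0.0988 in the gene-poor libraries. The eighth with the longest spans (79052 bases) had 4.80 and 3.62. The 3 longest protein-coding baseline genes by span, Gm20388, Fgfr2 and Ptprd, were kept by every gene-poor library, and Ptprd, a receptor phosphatase best known from neurons, had only 157 to 173 counts in the gene-rich and 47 to 211 in the gene-poor libraries. How far such counts stand for transcripts of the gene itself was not tested.

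Base composition separated the kept genes less at like level than length did. By quartiles of uridine content of the exons, the base that EU replaces, the shares kept were between 64.7% and 67.1%, and by quartiles of GC content they were between 63.2% and 67.2%. Exon number gave a gap much like that of length, from 62.7% in the quartile with the fewest exons to 73.2% in that with the most.

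Of the gene classes, protein-coding genes were kept at 66.4%, long noncoding genes at 57.0% and pseudogenes at 52.7%, averaged over the gene-poor libraries. Lost in all 4 were 6.61%, 15.8% and 15.8% of them. The noncoding genes were at lower level, with a median of 9.01 CPM and the pseudogenes 1.70 CPM against 67.8 CPM for protein-coding genes. As the mean over level deciles, each with the same weight, the shares were 70.1% of long noncoding, 75.9% of pseudogenes and 65.9% of protein-coding genes. The median pseudogene lay in the lowest decile, which as a whole was kept at 58.5%. Only 61 of the 278 pseudogenes had 100 or more counts in every gene-rich library. Deciles that hold few pseudogenes thus weigh as much as the lowest in the 75.9%. At a limit of 100 counts, over all levels, the kept shares were 54.8%, 48.4% and 60.6% in the same order. The difference between long noncoding and protein-coding genes at like level was 4.23 percentage points ± 2.99 (SD, n = 4), and at a limit of 1 count it had the other sign (-1.62).

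Lists of genes with a common role were read beside the share kept among all baseline genes of the same level deciles. Lists lay on both sides of that share. Over all baseline genes, 32.8% were kept by all 4 gene-poor libraries and 7.15% by none. Of 77 cytosolic ribosomal protein genes in the baseline set, 67 were kept by all 4 gene-poor libraries and 2 by none, and 93.5% were kept on average against 76.1% for genes of like level. Their summed level was 15394 to 17650 CPM in the gene-rich and 15416 to 16139 CPM in the gene-poor libraries, so the ranges overlapped. Rpl8 had 37646, 31360 and 31165 counts in the gene-rich and 28560, 33359, 29327 and 30579 in the gene-poor libraries. The 2 that no gene-poor library kept were Rpl36a, with 768 to 1671 counts against at most 4, and Rpl24, with 42 to 57 against 0. Ribosomal protein genes have many processed pseudogenes and the authors kept uniquely mapped reads, so counts of single members are uncertain.

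Splicing factors were kept at 92.7% against 82.9% at like level, with 42 of 48 kept by all 4 and none lost by all. Hnrnpa2b1 was among the steadiest genes, with 33751, 44287 and 51628 counts in the gene-rich and 30169, 47409, 38525 and 34681 in the gene-poor libraries. The summed level of the list was still lower in every gene-poor library, at 9954 to 12755 CPM against 14550 to 15361. Actin cytoskeleton genes were kept at 93.2% against 85.1%, nuclear-encoded subunits of oxidative phosphorylation at 82.1% against 66.9% and snoRNA host genes at 81.7% against 71.3%.

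The mitochondrially encoded genes were kept at 98.5% against 73.7%, with 16 of 17 kept by all 4. Their summed level was 24848 to 127008 CPM in the gene-poor and 11414.5 to 18763 CPM in the gene-rich libraries, while some members overlapped, such as mt-Nd6 with 545.8 CPM in washout 3 and 561.2 CPM in Fc-JAG1 1. mt-Nd1, a subunit of complex I, had 3975 (washout 2), 3716 (compE 2) and 5141 (Fc-JAG1 1) CPM against 37666 (washout 1), 8046 (washout 3), 19871 (compE 1) and 21617 (Fc-JAG1 3) CPM. mt-Co1, a subunit of complex IV, had 31348, 39302 and 59427 counts against 304065, 64869, 215048 and 176149. By contrast, nuclear genes for mitochondrial ribosomal proteins were kept at 65.3%, next to 67.0% at like level.

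Other lists were close to the share at like level. Proteasome subunits were kept at 87.9% against 87.3%, translation factors and their modifiers at 83.8% against 84.6%, heat shock proteins and their DNAJ partners at 71.2% against 71.8%, and kinetochore, condensin and kinesin genes at 67.1% against 66.7%. MCM helicase and origin licensing genes stood further above their share at like level, at 82.9% against 77.5%. Mcm5 illustrates the pattern with 14022, 16060 and 18938 counts in the gene-rich and 29, 15431, 6695 and 16415 in washout 1, washout 3, compE 1 and Fc-JAG1 3. Immediate early genes, induced within minutes of a stimulus, were kept at 65.9% against 66.2%, and Myc had 27439, 35489 and 30302 counts against 19111, 47501, 7671 and 1369.

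**Figure D4:**
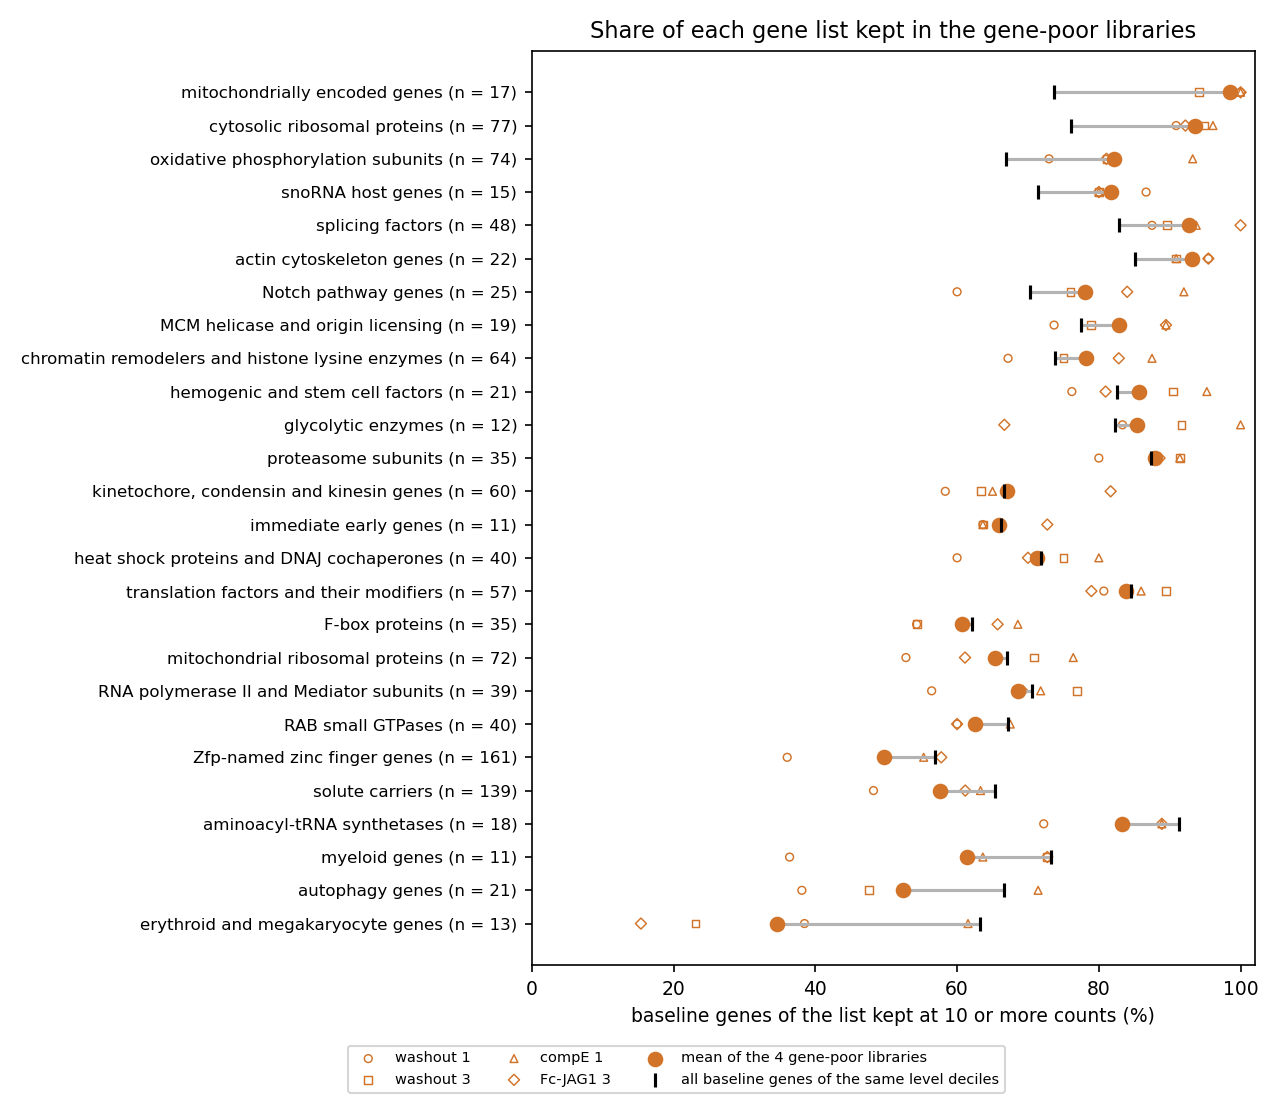
Share of the baseline genes of each list kept at 10 or more counts, for the lists with 10 or more baseline genes. Filled orange points are the mean of the 4 gene-poor libraries, open symbols the single libraries and black bars the share of all baseline genes of the same level deciles, and lists are ordered by the difference. Mitochondrially encoded (98.5%) and cytosolic ribosomal protein genes (93.5%) lie to the right of their bars, and erythroid and megakaryocyte genes (34.6%) lie to the left of theirs (63.3%).

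Erythroid and megakaryocyte genes were the list furthest below the share at like level, with 34.6% of 13 baseline genes kept against 63.3%. None of the 13 was kept by all 4 gene-poor libraries and 5 were kept by none, among them Pf4, Ppbp, Gp1bb and Hbb-bh1, next to 7.15% of all baseline genes. Pf4, the platelet factor 4 gene, had 7742, 3095 and 7162 counts in the gene-rich libraries and 0, 0, 1 and 0 in washout 1, washout 3, compE 1 and Fc-JAG1 3. Hbb-bh1, an embryonic globin, had 3556, 1797 and 1176 against 0, 0, 1 and 0. Tfrc, the transferrin receptor, was by contrast at 13452, 12416 and 16354 counts in the gene-rich and 492, 15443, 6356 and 5 in the gene-poor libraries.

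Autophagy genes were kept at 52.4% against 66.6%, and myeloid genes at 61.4% against 73.2%. Of 21 autophagy genes, 2 (9.52%) were kept by all 4, beside 32.8% of all baseline genes. Elane, a neutrophil protease gene, had 400, 425 and 796 counts in the gene-rich libraries and none in any gene-poor library, whereas Spi1, which drives myeloid genes, was in all 7. Zfp-named zinc finger genes, mostly low-level DNA-binding repressors, were kept at 49.7% against 56.9%. Of 161 of them, 27 (16.8%) were lost in all 4, beside 7.15% of all baseline genes, a share that is not matched for level. The median level of these zinc finger genes was 39.5 CPM. In the fourth level decile (32.6 to 46.4 CPM) 100 of 924 genes were lost in all 4. Solute carriers stood at 57.6% against 65.4%, with 16 of 139 lost in all 4. Aminoacyl-tRNA synthetase genes were kept at 83.3% against 91.3%, and RAB small GTPases at 62.5% against 67.2% with 5 of 40 (12.5%) lost in all 4.

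The Notch pathway, which compE and Fc-JAG1 were meant to act on, had 25 of 40 listed genes in the baseline set. Of these 25, 10 (40%) were kept by all 4 gene-poor libraries and 1 (4%) by none, beside 32.8% and 7.15% of all baseline genes. On average 78.0% were kept against 70.3% at like level. Some of the members given next were chosen for their role after their values were seen. Among receptors, Notch1 had 5188, 5944 and 3623 counts in washout 2, compE 2 and Fc-JAG1 1 and 424, 4, 683 and 1157 in washout 1, washout 3, compE 1 and Fc-JAG1 3, and Notch2 had 3630, 1705 and 1989 against 21, 6023, 837 and 5218. The gene-rich libraries were thus all above the gene-poor ones for Notch1 but not for Notch2.

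Among the ligands, Jag1 was near the limit in the gene-rich libraries, with 12, 10 and 21 counts, and had 1789, 3, 462 and 7 in washout 1, washout 3, compE 1 and Fc-JAG1 3. Its paralogue Jag2 had 211, 40 and 2489 counts against 257, 1482, 203 and 0, and Dll4 had at most 13 counts in any library. Of the γ-secretase complex, the subunit gene Ncstn had 4747, 9373 and 11697 counts in the gene-rich and 0, 8, 7307 and 5786 in the gene-poor libraries. The sheddase gene Adam10 had 6668, 10524 and 9393 against 4830, 9495, 13 and 3823. In the nucleus, Rbpj, which binds the DNA sites of the pathway, had 3731, 2255 and 728 against 6, 1409, 4213 and 2568.

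The target gene Hes1, a transcriptional repressor (chr16:30064384-30067796), was the Notch pathway member lost by all gene-poor libraries. It had 748 (washout 2), 977 (compE 2) and 1867 (Fc-JAG1 1) counts in the gene-rich libraries and 0, 1, 0 and 0 in washout 1, washout 3, compE 1 and Fc-JAG1 3. Of the other targets listed, Hes5 had 239 counts in Fc-JAG1 1 and none elsewhere, and Hey2 and Heyl had at most 2 counts in any library. Within each condition the presence of Hes1 thus followed the class of the library, and a count of it at 10 or more was seen in 1 library per condition.

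Of the 661 baseline genes lost by all 4 gene-poor libraries, those with the highest lowest level over the gene-rich libraries included Nol8, Timm29, Pf4, Gpnmb and Vps53. Nol8, a nucleolar protein gene (chr13:49653078-49679016), had 3312, 7378 and 3573 counts against 1, 1, 2 and 0. Timm29, a subunit of the mitochondrial inner membrane import machinery (chr9:21592722-21595970), had 5002, 3231 and 3753 against 0, 0, 0 and 5. Gpnmb, a membrane glycoprotein gene, had 3108, 2745 and 3829 against 1, 1, 2 and 0. Tfap4, a transcription factor gene, had 2522, 2642 and 2894 counts, and Thoc6, a subunit of the THO complex of messenger RNA export, had 2228, 3954 and 2617, while both were at 8 or fewer in each gene-poor library. The remaining ones by the same rule were Psph, Usp31 and Erlin1, with 2007 to 4958 counts in the gene-rich libraries and at most 4 in the gene-poor ones.

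Genes held by gene-poor libraries only were mostly held by a single library. Of 1506 genes at 10 or more counts in some gene-poor but no gene-rich library, 1317 were in 1 gene-poor library, 159 in 2, 24 in 3 and 6 in 4. Evc, a gene of the primary cilium, had 0, 0 and 1 counts in the gene-rich libraries and 729, 201, 0 and 5183 in washout 1, washout 3, compE 1 and Fc-JAG1 3. Sparc, a matrix glycoprotein gene of stroma, had 3715 counts in compE 1 and at most 27 elsewhere, and Cdh17 had 1994 in washout 1 and at most 20 elsewhere. Sparc and Cdh17 were thus high in 1 library each, and Evc was above 200 counts in 3. For comparison, 4034 genes were held by some gene-rich but no gene-poor library. The classes were set by the number of genes held, so this difference is in part fixed by the rule.

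The genes lost were shared in part between the gene-poor libraries. Of the 5148 baseline genes kept by washout 1, 4017 were kept by washout 3. This is 78.0% of them, while washout 3 kept 67.2% of all baseline genes and 53.5% of those that washout 1 had lost. It is 64.7% of the 6208 genes kept by washout 3, while washout 1 kept 55.7% of all baseline genes. Lost by every gene-poor library were 661 baseline genes. Within level deciles a gene kept by one gene-poor library was kept by another 12.3 to 17.4 percentage points more often than a gene that the first had lost, as the mean over deciles. This difference was 32.2 to 40.2 points in the lowest decile and -2.91 to 12.8 points in the highest.

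Levels differed accordingly between libraries. Over the genes that either library of a pair held at 10 or more counts, and with 1 CPM added to each level, 19.1% (washout 2 and compE 2), 20.4% (washout 2 and Fc-JAG1 1) and 20.7% (compE 2 and Fc-JAG1 1) were over 4-fold apart between gene-rich libraries, all of which differed in condition. All pairs with a gene-poor library lay far above these. Washout 1 differed over 4-fold from washout 3, which shares its condition, at 55.3% of genes, from compE 1 at 55.8% and from Fc-JAG1 3 at 55.0%. Washout 3 differed from compE 1 at 51.6% and from Fc-JAG1 3 at 51.0%, and compE 1 from Fc-JAG1 3 at 51.8%. Against washout 2, compE 2 and Fc-JAG1 1, the shares were 55.4%, 55.3% and 55.9% for washout 1 and 43.8%, 44.6% and 44.8% for washout 3. In the same order they were 46.5%, 46.3% and 47.0% for compE 1 and 47.1%, 46.8% and 47.4% for Fc-JAG1 3. The pairs within a condition, at 43.8% to 55.4%, covered the range of the pairs between conditions that included a gene-poor library (44.6% to 55.9%) almost fully. Across the baseline genes, which were chosen as held by every gene-rich library and so favour the gene-rich pairs, and which are not independent replicates, Spearman's rho between levels was 0.816 to 0.827 for the gene-rich pairs and 0.347 to 0.416 for the gene-poor pairs.

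**Figure D5:**
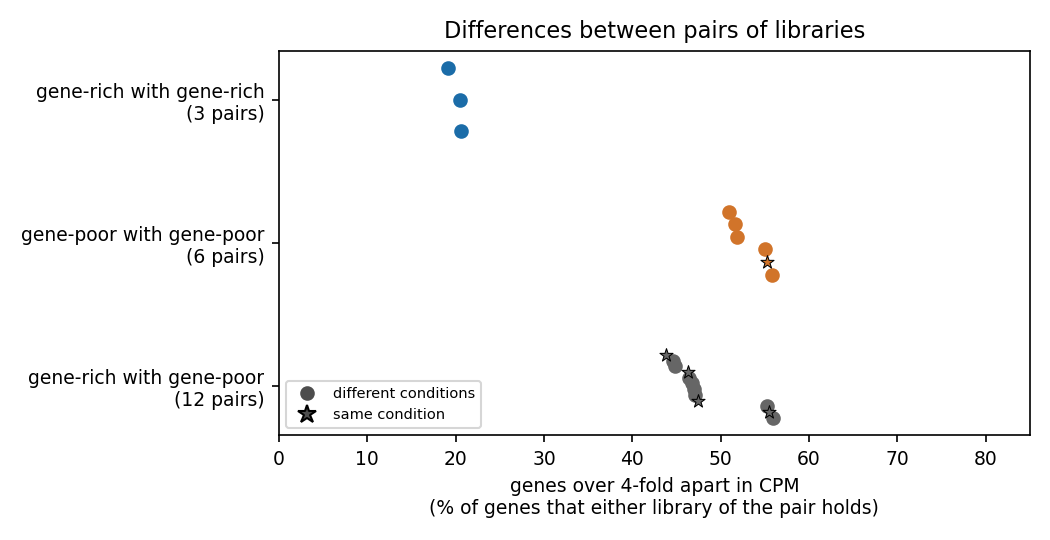
Share of genes over 4-fold apart in CPM (%, with 1 CPM added), of the genes that either library of the pair holds at 10 or more counts, for all 21 pairs of libraries. Stars are pairs of the same condition. The 3 pairs of gene-rich libraries lie at 19.1% to 20.7% although their conditions differ, and the star among the gene-poor pairs, washout 1 with washout 3, lies at 55.3%.

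Even among the 3035 genes held by all 7 libraries, the median range of log2 CPM over the libraries was 3.75, and 54 genes (1.78%) had a range under 1. The steadiest were Pik3cd, Hnrnpa2b1, Rpl8, Cmtm7 and Adgrg1. Pik3cd, the leukocyte PI3-kinase subunit, had 11848, 14560 and 13431 counts in the gene-rich and 8502, 10984, 12219 and 11693 in the gene-poor libraries, and Adgrg1, a stem cell adhesion receptor, had 27568, 40091 and 35783 against 25792, 31555, 23308 and 29374. Among the widest ranges were those of Vti1a, Uba2, Hsph1 and Ncapd2. Ncapd2, a condensin subunit, had 5761, 7528 and 6426 counts against 16055, 9168, 16387 and 10, and Uba2 had 11 counts in washout 3 and 8007 to 15925 in the other libraries. In each of these 4 genes the drop was in gene-poor libraries. The common dispersion over the baseline genes, fitted with edgeR without regard to condition, corresponded to a biological coefficient of variation of 0.627 for the 3 gene-rich and 2.03 for the 4 gene-poor libraries. For washout 1 and washout 3 alone it was 1.94. Because baseline genes have no low counts in the gene-rich libraries by definition, part of this contrast is fixed by the choice of genes.

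The study compared Fc-JAG1 and compE with washout, and each condition held libraries of both classes. With the sample number as a block, the quasi-likelihood test of edgeR ran on the 10311 genes of the authors' filter, with 2 residual degrees of freedom. It called no gene at an adjusted p under 0.05 for Fc-JAG1 (0.0% of those that could be called) or for compE (0.0%). The unadjusted p was under 0.05 for 512 of 9569 genes for Fc-JAG1 and 264 of 9632 for compE. With so few residual degrees of freedom, the lack of calls does not show that the conditions had no effect. Without the block edgeR called 1 gene for Fc-JAG1 (0.0105%), the ribosomal RNA gene CT010467.1, and none for compE. With the class of the library in place of the sample number it called none for either comparison, with 513 and 521 genes at an unadjusted p under 0.05. The Wald test of DESeq2 called many genes on the same counts. With the sample number as a block it called 2108 genes for Fc-JAG1 (22.0% of the 9569 genes that could be called, 1619 higher and 489 lower) and 962 for compE (9.99% of 9632, 584 higher and 378 lower). With the class of the library as a term it called 1551 for Fc-JAG1 (16.2%, 601 higher and 950 lower) and 1599 for compE (16.6%, 686 higher and 913 lower).

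Many of the genes DESeq2 called were held unequally within a condition. Of the 2108 called for Fc-JAG1 with the block, 1561 (74.1%) had under 10 counts in one library and 100 or more in another library of the same condition, beside 53.7% of the genes that could be called. For compE the shares were 70.2% of those called and 53.3% of those that could be. Since each condition has 1 gene-rich library, no comparison of conditions within the gene-rich class has replicates. For the libraries numbered 2 and 3 the sample number and the class cannot be told apart.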

How the data were processed

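GFI1+ IAHC nascent RNA was sequenced in 7 libraries. The authors captured EU-labelled RNA, pre-amplified the cDNA and used cutadapt 4.2 for trimming. STAR 2.7.8 served for alignment to GRCm38 (uniquely mapped reads kept), and featureCounts of Subread 2.0.1 for counting with gene as the feature. The deposited values are raw counts without normalization. A second deposited table held the same counts for the 10311 genes at 10 or more counts in at least 2 libraries of one condition, which was checked on the values. Without molecular identifiers, counts are not independent molecules. The error of shares and totals can therefore not be read from the counts, and no interval is given for them. Genes are named from GENCODE M21, which covered 55227 of 55487 identifiers, and coordinates, spans, exonic lengths and biotypes are from the same annotation (GRCm38).

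CPM are counts scaled to a library total of 1000000. Level deciles and quartiles of length were cut over the baseline genes by mean CPM of the gene-rich libraries, and "at like level" is the mean over deciles of the share within each. Condition was tested with edgeR 4.0.16 (TMM, quasi-likelihood, Benjamini-Hochberg threshold 0.05) on all 7 libraries with sample number and condition as terms, as the study's methods pair its samples, and a called gene also had 10 or more counts in at least 2 libraries of a compared condition. DESeq2 1.42.0 was the alternative here. The study itself used the Wald test of DESeq2 1.38.3 with sample and condition as terms. The 962 genes called here for compE with the block equal the number that the study reported. The p-values measure the spread between these samples. The pairing comes from the embryo number in the labels. Deviations of same-numbered libraries from their condition means correlated between -0.085 and 0.091 over genes, within the range of the other pairs (-0.096 to 0.096), and with 2 libraries in a condition these values are mirror images, so they do not show pairing. The scripts were tested on simulated data.

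The members, the 37 gene lists and the rules for naming genes were chosen with earlier results of these data known, and name patterns of 2 lists were narrowed after their members, not their values, had been looked at. Genes are named by these rules: the highest per kilobase in the baseline set, those lost by all 4 gene-poor libraries with the highest lowest level, those held only by gene-poor libraries, all sort markers and stem cell factors, the leading and lost members of each list, the longest and shortest genes and the steadiest and most variable ones. Other genes named for a role, such as further Notch, endothelial and erythroid genes and the first gene of each library, were chosen after their values were seen. Symbols that name more than 1 gene were left out of the lists. Libraries are named by condition and embryo number. A few genes that these rules name are not reported here.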

Additional observations from a re-analysis of the deposited data

Results flagged for a closer look

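Among 10 quantities read in each of the 4 gene-poor libraries, washout 1 stood apart from the other 3 in 2 by Dixon's test at the 95% level, which chance passes in about 1 of 20 such groups. Its share of baseline genes at 0 counts was 22.3%, where the other gene-poor libraries had 15.2% to 16.2%. Its difference in the share kept between the highest and the lowest decile by level was 43.5 percentage points, where the lowest of the 4, washout 3, had 35.3. Washout 1 also had the smallest total, 21652927 counts, and the largest mitochondrially encoded share, 12.7%. Conditions hold 2 or 3 libraries each and could not be examined in this way.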

How the results depend on the processing

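With 1 library left out the gene-rich libraries held 11842 to 12217 genes on average, the gene-poor ones 7285 to 7896, the baseline set had 9242 to 10240 genes and 61.8% to 69.1% were kept. At a minimum of 1 count the gene-poor libraries held 14025 genes on average, 396 baseline genes were missing from all of them and 79.2% were kept. The number of baseline genes lost in all gene-poor libraries was 836 to 1046 when 1 library was left out, against 661, and passed 1.5 times that without washout 3 (1039), compE 1 (1035), Fc-JAG1 1 (1046) or Fc-JAG1 3 (1035). The highest minus the lowest decile by level (37.6 points) was 32.8 at a minimum of 1 count, 48.4 at 20 counts, 51.4 at 1 CPM, 61.2 at 100 counts, and 35.6 to 49.3 with 1 library left out. The longest minus the shortest quartile (9.71 points) was 18.0 at 1 count, 4.86 at 1 CPM, 15.1 by span, 28.6 with levels per kilobase, 1.39 at 100 counts, 2.60 at 100 counts by span, and 7.82 to 11.9 with 1 library left out. Long noncoding minus protein-coding genes (4.23 points) reversed to -1.62 at 1 count and was 8.86 at 20 counts, 7.75 at 1 CPM, 9.09 at 100 counts and 1.53 to 5.09 with 1 library left out. The settings at 100 counts for these 3 differences were chosen after seeing the data. Causes of these shifts were not tested.

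The fit without the block on the sample number, which unpairs the libraries, called 1 gene for Fc-JAG1 and none for compE, with 578 and 588 genes at an unadjusted p under 0.05. The gene was CT010467.1, the ribosomal RNA gene, at a log2 fold change of 1.24 (edgeR adjusted p = 0.041, and 0.381 with the block). DESeq2 called 2108 and 962 genes with the block and 1551 and 1599 with the class term. No gene was called by edgeR with DESeq2 size factors (485 and 256 at an unadjusted p under 0.05) or with all genes that had a count (473 and 153). These fits had 2 residual degrees of freedom, so the lack of calls does not show that the conditions had no effect. Fits with 1 library left out had only 1, and some left 1 library in a condition, so their calls are not read.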
